A study of Sus scrofa with 4 samples.

Results

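Proliferating cells of the pig meniscus were taken as the cell barcodes in which 6 cell division genes, TOP2A, NUSAP1, CENPF, PCLAF, ANLN and CENPE, together gave 3 or more unique molecular identifiers (UMIs, each counting 1 captured RNA molecule). Of 27727 barcodes with 200 or more detected genes, 219 met this rule, which is 0.790% (exact binomial interval 0.689 to 0.901%). The cells were thus chosen by measured values of these 6 genes. They are called dividing cells here as a short name for the rule, and the 27508 remaining barcodes are the other cells. The study measured RNA in single cells by droplet sequencing in 4 libraries of the meniscus, a crescent of fibrous cartilage between thigh bone and shin bone, from pigs (Sus scrofa). The lateral and the medial meniscus were each divided into a white zone and a red zone, giving 2 white zone and 2 red zone libraries of 1 sample each. Cells were freed with 2 enzyme mixtures, pronase first and collagenase second, after the synovium had been removed. All 4 samples share this handling, and no breed, age, treatment or animal number is given in the labels used here, so the p-values below measure only the spread between these libraries.

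A cell that divides first copies its DNA and then separates the copies in mitosis, and the RNAs for each stage are made mostly when they are needed. Early genes encode replication machinery and enzymes that supply nucleotides, and later genes encode the cyclins, kinesin motors, spindle and kinetochore proteins of mitosis. The red zone of the meniscus is the outer part that blood vessels reach, whereas the white zone is the inner part, rich in cartilage matrix and poor in vessels. Matrix-forming cells of such tissues divide slowly in the adult.

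The rule genes act at different points of division. TOP2A untangles copied DNA, NUSAP1 stabilises spindle microtubules, CENPF and CENPE work at the kinetochore, PCLAF binds the replication clamp, and ANLN builds the contractile ring of cytokinesis. NUSAP1 was seen in 179 dividing cells, TOP2A in 150, CENPE in 131, PCLAF in 124, CENPF in 120 and ANLN in 85. All 6 were seen in 18 cells, and 5 cells held UMIs of 1 rule gene alone. TOP2A stood at 832, 525, 540 and 562 CPM, the UMIs of a gene for every 1e6 UMIs of the summed cells, in dividing cells of the lateral white, medial white, lateral red and medial red libraries, against 0.584, 0.607, 3.37 and 4.58 CPM in their other cells. NUSAP1 was the rule gene most often seen outside the set, in 3.24% of other cells, and the remaining rule genes were each seen in 0.207 to 0.451% of them. Because these values chose the cells, they are given as a description only. The median sum of the rule genes was 7 UMIs and the highest was 32. At the threshold, 47 cells held exactly 3 UMIs and 111 barcodes just outside held exactly 2.

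The name of the cells was set beside 2 lists that share no gene with the rule, though their genes are tied to it. A list of 38 measured genes for mitosis and the kinetochore gave at least 1 UMI in 212 of the 219 cells, and genes for replication and nucleotide supply gave at least 1 in 208. Both lists were seen in 204 cells, with medians of 10 UMIs for mitosis and 7 UMIs for replication and nucleotide supply. At least 1 mitosis UMI was also seen in 29.8% of barcodes with no rule UMI and 38.8% of those with 1. For the replication list alone these shares were 32.3% and 41.0%. Dividing cells had a median of 2987 UMIs, against 1507 in barcodes with no rule UMI, so detection was not compared at equal depth. The mitosis list stood at 231 CPM in barcodes with no rule UMI, 278 with 1, 835 with 2, 1797 with 3, 3212 with 4 to 9 and 5687 with 10 or more. The replication list stood at 242, 310, 742, 1391, 1834 and 1485 CPM over the same bins, so it was highest in the middle bin of the dividing cells. Barcodes with a sum of 2 therefore already held more of both lists than barcodes with 0 or 1. MKI67 could not be matched by symbol and has no value here.

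**Figure D1:**
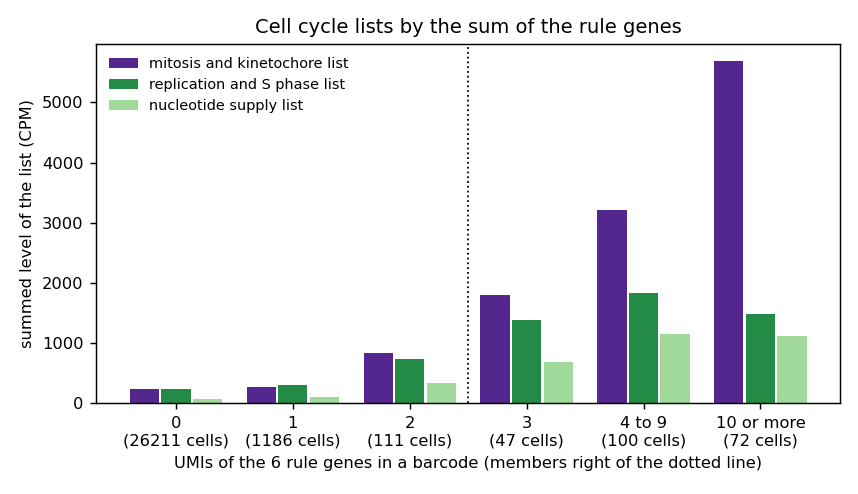
Level of the mitosis, replication and nucleotide supply lists in CPM (vertical axis) for barcodes binned by the summed UMIs of the 6 rule genes (horizontal axis, low to high), with dividing cells ("members") right of the dotted line. The mitosis list stands at 231 CPM in barcodes with no rule UMI and at 5687 CPM in those with 10 or more.

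The number of dividing cells differed between libraries. There were 10 in 7382 barcodes of the lateral white library and 24 in 7807 of the medial white library, against 40 in 5715 of the lateral red library and 145 in 6823 of the medial red library. These are 0.135% (exact 95% interval 0.0650 to 0.249) and 0.307% (0.197 to 0.457) in the white zone, against 0.700% (0.50 to 0.952) and 2.13% (1.80 to 2.5) in the red zone. Both red zone shares lay above both white zone shares, and within each zone the medial library lay above the lateral one. The mean share was 0.221% ± 0.122 in the white zone and 1.41% ± 1.01 in the red zone (SD, n = 2 libraries each), a difference of -1.19 percentage points. With 2 libraries against 2, an exact permutation test cannot go below p = 0.333, so no test was made. Without the medial red library the difference was -0.478 points.

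**Figure D2:**
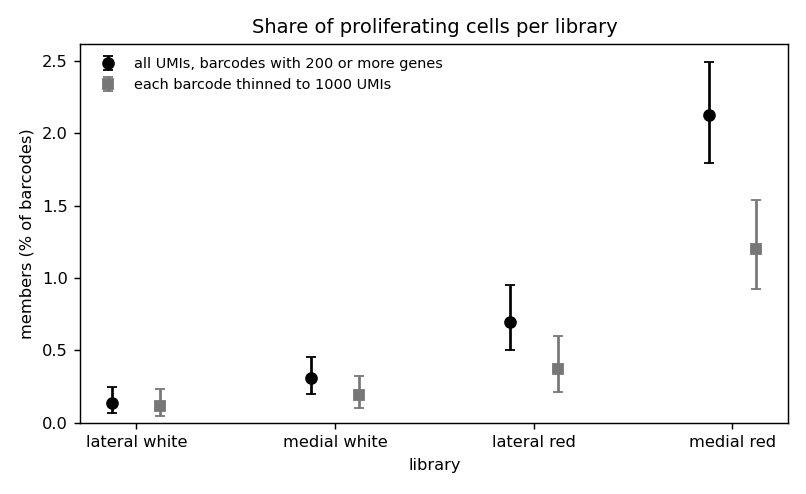
Share of barcodes that are dividing cells, in percent (vertical axis), for the 4 libraries over all kept barcodes and over barcodes with 1000 or more UMIs thinned to 1000, with exact 95% binomial intervals that cover counting error only. The lateral white library is lowest at 0.135% and the medial red library highest at 2.13%.

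The libraries held 9666319 to 14902274 UMIs, and depth moved with the rule. Dividing cells had a median of 2717, 3586, 2700.5 and 3025 UMIs in the lateral white, medial white, lateral red and medial red libraries, against 1495, 1615, 1467 and 1473 UMIs in their other cells. Barcodes with 1000 or more UMIs were thinned to 1000, which left out 1244, 944, 1392 and 1592 barcodes. Of the 6138, 6863, 4323 and 5231 that remained, 7, 13, 16 and 63 met the rule, or 0.114, 0.189, 0.370 and 1.20%, in the same order of libraries. Mitochondrial genes gave a median of 2.35 to 2.96% of UMIs in dividing cells and 1.82 to 2.53% in other cells. The doublet caller Scrublet marked none of the 219 cells, but it marked under 0.5% of barcodes in 3 of the libraries and so was not informative; 12 dividing cells had a score in the top 5% of their library. The libraries shared 78 barcodes, of which 3 belonged to a dividing cell and none to a pair of dividing cells. Summed over dividing cells, the libraries held 25245, 81829, 118547 and 505710 UMIs, so 1 UMI in the lateral white sum is worth 39.6 CPM and values there are coarse.

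Genes of the cell cycle outside the rule are tied to it, and are likewise described without a test. The mitosis list stood at 5229, 4155, 3973 and 3915 CPM in dividing cells of the lateral white, medial white, lateral red and medial red libraries, against 164, 202, 308 and 311 CPM in their other cells. The sum over dividing cells lay above that over other cells in every library. The ubiquitin-conjugating enzyme gene UBE2C, which acts with the anaphase-promoting complex, stood at 119, 196, 101 and 198 CPM in dividing cells and at no more than 0.440 CPM in the other cells of any library. TPX2, a spindle assembly factor, stood at 206 to 237.7 CPM in dividing cells and 1.24 to 3.70 CPM in other cells. CCNB1, the cyclin that drives entry into mitosis, was seen in 34 of the 219 cells.

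Replication genes were also higher in dividing cells of every library as a list. The list stood at 1664, 1405, 2075 and 1532 CPM in dividing cells, against 237, 232, 263 and 272 CPM in other cells. PCNA, the replication clamp, stood at 277, 147, 295 and 253 CPM in dividing cells, against 82.3, 70.5, 77.3 and 61.1 CPM in other cells. TK1, which makes thymidine monophosphate, stood at 237.7, 36.7, 118 and 91.0 CPM in dividing cells, against 0.146, 0.202, 1.05 and 1.5 CPM in other cells. The medial white library was the lowest for both genes among dividing cells. Of the chromatin genes, STMN1, a microtubule-destabilising protein, was seen in 131 of the 219 cells and in 1.89% of other cells, and the chromatin protein gene HMGB2 in 145 and in 9.73%. SMC4, a condensin subunit that compacts chromosomes, was seen in 167 dividing cells and in 9.96% of other cells.

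Genes that act before replication were less uniform. CCND1, a cyclin D that growth signals induce, stood at 0, 48.9, 59.0 and 57.3 CPM in dividing cells, against 37.4, 38.7, 49.0 and 39.2 CPM in other cells, and was thus close in both. CCND2, a second cyclin D, stood at 39.6, 24.4, 92.8 and 113 CPM in dividing cells, against 145, 100, 200 and 195 CPM in other cells, and was lower in all 4 libraries. E2F8, a repressor of the E2F family that is made late in G1 and in S phase, was seen in 26 dividing cells and in 0.0254% of other cells.

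Among inhibitors of the cycle, CDKN1C (p57) stood apart from its relatives. It stood at 0, 110, 160 and 125 CPM in dividing cells, against 500, 275, 374 and 320 CPM in other cells, and was lower in every library. CDKN1A (p21) was seen in 62 dividing cells and stood at 39.6, 48.9, 127 and 158 CPM, against 54.4, 46.0, 85.2 and 87.9 CPM in other cells. CDKN1B (p27) stood at 79.2, 147, 59.0 and 103 CPM in dividing cells, against 62.9, 81.9, 83.8 and 67.1 CPM in other cells. Neither p21 nor p27 was on one side in all 4 libraries. CDKN2C (p18) stood at 237.7, 330, 127 and 123 CPM in dividing cells, against 24, 36.3, 34.8 and 33.6 CPM in other cells, and was higher in every library.

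To find the lineages of the dividing cells, all barcodes were clustered, and clusters were named from marker lists with the ending "-like". The clustering used all variable genes, so class shares are a description. Endothelial-like cells held 77 of the 219 dividing cells, tendon-type-like cells 47, mural-like cells (vessel wall muscle and pericytes) 29, myeloid-like cells 24, T or NK cell-like cells 18, fibroblast-like cells 13 and B or plasma cell-like cells 5. Fibrochondrocyte-like cells held 3, chondrocyte-like cells 2 and the unnamed matrix clusters 1. Vascular and immune classes together held 153 dividing cells, or 69.9% (63.3 to 75.9), while they made up 25.4% of all barcodes.

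As a share of each class, dividing cells were 5.66% of T or NK cell-like cells (18 of 318, interval 3.39 to 8.80), 3.09% of B or plasma cell-like cells (5 of 162, 1.01 to 7.06) and 2.94% of endothelial-like cells (77 of 2617, 2.33 to 3.66). They were 1.58% (1.01 to 2.34) of myeloid-like cells, 1.37% (1.01 to 1.82) of tendon-type-like cells, 1.25% (0.838 to 1.79) of mural-like cells and 0.512% (0.273 to 0.875) of fibroblast-like cells. They were 2 of 5747 chondrocyte-like cells, or 0.0348% (0.00421 to 0.126), 3 of 4649 fibrochondrocyte-like cells, or 0.0645% (0.0133 to 0.188), and 1 of 4341 cells of the unnamed clusters, or 0.0230%. The matrix classes depend on the clustering genes: with the cell cycle lists left out, dividing cells were 0.428% of fibrochondrocyte-like cells (21 of 4908, 0.265 to 0.653), 0.0828% of tendon-type-like cells (2 of 2415, 0.0100 to 0.299) and 0.0325% of chondrocyte-like cells (3 of 9245). Among 93 lymphatic endothelial-like cells there were 0, which allows a share of up to 3.23% by the limit of 3 counts (exact upper bound 3.89%). These classes differ in depth. The other T or NK cell-like cells had a median of 720 UMIs, the other B or plasma cell-like cells 3127 and the other chondrocyte-like cells 1673. What part depth has in the order of the shares was not tested.

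**Figure D3:**
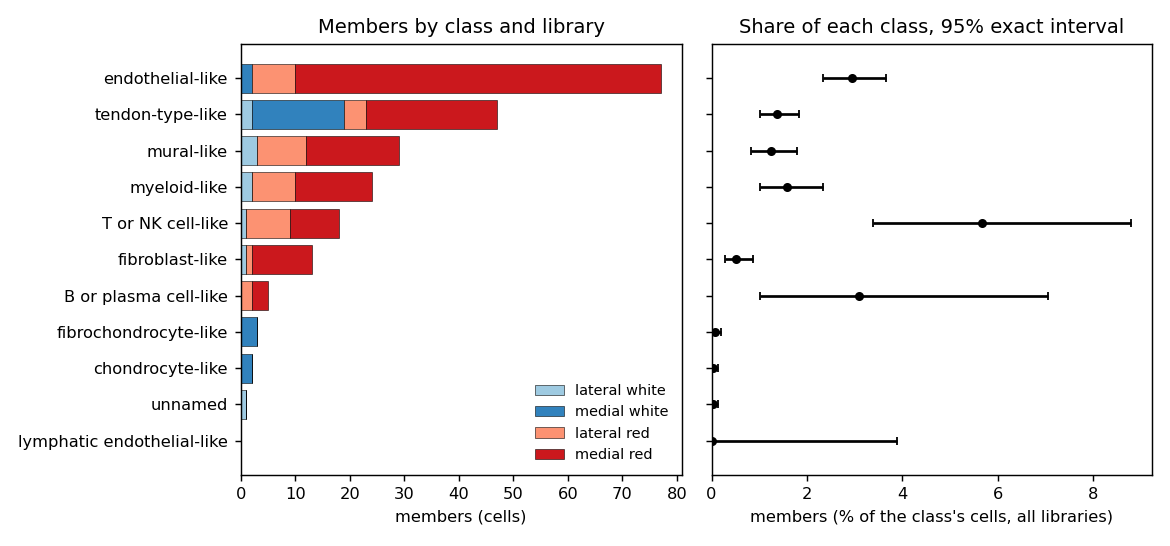
Left, number of dividing cells ("members", horizontal axis) in each cell class, with bars stacked by library. Right, dividing cells as a percentage of the cells of each class over all libraries, with exact 95% intervals for counting error; T or NK cell-like cells are at 5.66% and chondrocyte-like cells at 0.0348%.

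The makeup differed between libraries. Vascular and immune classes held 60.0% of the 10 dividing cells of the lateral white library (interval 26.2 to 87.8) and 8.33% of the 24 of the medial white library (1.03 to 27.0), against 87.5% of the 40 of the lateral red library (73.2 to 95.8) and 75.9% of the 145 of the medial red library (68.1 to 82.6). The interval of the medial white library lay below those of both red zone libraries. Vascular and immune classes made up 5.91% and 6.56% of barcodes in the lateral and medial white libraries, against 52.6% and 45.1% in the lateral and medial red libraries. Within vascular and immune cells, dividing cells were 1.38% and 0.391% in the lateral and medial white libraries, against 1.16% and 3.57% in the lateral and medial red libraries. Within matrix and unnamed clusters they were 0.0576% and 0.302%, against 0.185% and 0.935%. The 2 zones overlapped in both kinds of cells when taken apart this way.

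Endothelial-like cells of the medial red library held 67 dividing cells of 1092, or 6.14% (4.79 to 7.73), against 8 of 1033, or 0.774% (0.335 to 1.52), in the lateral red library. Over barcodes thinned to 1000 UMIs, with shallower ones left out, the shares were 3.15% (2.05 to 4.62) and 0.493% (0.102 to 1.44). The lateral white library had 0 of 192, which allows up to 1.56% by the limit of 3 counts (exact upper bound 1.90%), and the medial white library had 2 of 300. At the lateral red library's share in each class, 42.7 dividing cells would stand in the medial red library, against the 145 found. With 1 library for each meniscus and zone, the meniscus and the library cannot be told apart.

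The lineage genes seen in single dividing cells followed their classes. PECAM1, an adhesion protein of endothelial junctions, was seen in 76 of the 77 dividing endothelial-like cells. It was seen in 89.7% of the other endothelial-like cells and in 2.33% of other T or NK cell-like cells. ACTA2, smooth muscle actin, was seen in 27 of 29 dividing mural-like cells, against 78.5% of the others. CSF1R, the receptor for the macrophage growth factor, was seen in all 24 dividing myeloid-like cells, against 61.4% of the others. CD3E, a chain of the T cell receptor complex, was seen in 12 of the 18 dividing T or NK cell-like cells, against 30.3% of the others. In CPM, PECAM1 stood at 2188 CPM in dividing and 2267 CPM in other endothelial-like cells, and CSF1R at 740 CPM in dividing and 737 CPM in other myeloid-like cells. Dividing cells had more UMIs per cell, with medians of 2742 against 1206.5 for endothelial-like, 2924 against 1368.5 for mural-like, 2868 against 1422.5 for myeloid-like and 1473.5 against 720 for T or NK cell-like cells. Matrix RNA was found in every class, since COL1A1, the main chain of type I collagen, gave 5635 CPM in dividing and 5937 CPM in other T or NK cell-like cells, so COL1A1 in a single dividing cell does not mark it as a matrix cell.

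Of the 24 dividing cells of the medial white library, 17 fell in the tendon-type-like cluster, where they made up 17 of 63 barcodes (27.0%, 16.6 to 39.7). The tendon-type list stood at 2810 CPM in these 17 cells, against 3393 CPM in the other tendon-type-like cells, 2998 CPM in fibrochondrocyte-like cells and 477 CPM in chondrocyte-like cells of the same library. Most of it was THBS4, a thrombospondin of tendon matrix, seen in 14 of the 17 at 2600 CPM, against 3149, 2274 and 407 CPM in those 3 groups. KERA, a keratan sulfate proteoglycan of cornea and tendon, was seen in 1 of the 17 and stood at 43.1 CPM in the other tendon-type-like cells, and MYOC was at 0 in both. COMP, a cartilage and tendon matrix protein, was seen in all 17 at 10402 CPM, against 6369 CPM in the other tendon-type-like cells, 19885 CPM in fibrochondrocyte-like cells and 14242 CPM in chondrocyte-like cells. CILP, a protein of the middle layers of cartilage, was seen in 9 at 867 CPM, against 71.9, 1920 and 1973 CPM in those 3 groups. HAPLN1, which links aggrecan to hyaluronan, was seen in all 17 at 1480 CPM, against 604, 842 and 2089 CPM. ACAN, aggrecan itself, was seen in 14 at 1450 CPM, against 733, 1065 and 3533 CPM. Of the same chondrocyte list, CLEC3A and SOX9 were each seen in 8 and CHAD in 7. COL11A2 and SNORC were each seen in 2, COL9A1 and COL9A3 each in 1, and MIA in 0. These 17 cells were deeper, with a median of 3648 UMIs, against 1269, 1799 and 1557 in those groups. COL2A1, the collagen of hyaline cartilage, was seen in 5 at 717 CPM, against 173, 2558 and 19932 CPM. The fibroblast list stood at 73797 CPM in the 17 cells, against 56490, 138989 and 58854 CPM, with DCN, COL1A1 and COL3A1 in all 17. LUM, a small proteoglycan of the same list, was at 0, against 1050 CPM in the other tendon-type-like cells.

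When the cell cycle lists were left out of the clustering genes, all 17 were placed among fibrochondrocyte-like cells, and only 2 of the 47 dividing tendon-type-like cells kept that class. Another 24 of the 47 were placed among fibroblast-like cells. The vascular and immune share was little changed, at 71.7%, and all 77 endothelial-like, 24 myeloid-like and 18 T or NK cell-like dividing cells kept their class. The 17 cells are therefore called the matrix cells of the medial white library here. THY1, a surface glycoprotein of fibroblasts and other stromal cells, was seen in 12 of them at 433 CPM. It stood at 86.3, 54.4 and 17.0 CPM in the 3 groups of other cells. At a finer clustering (resolution 1) on all variable genes, a cluster named proliferating-like held 50 dividing cells among 58 barcodes. Of these 50, 17 were from the medial white library. The cluster has no lineage name and was counted with the matrix clusters.

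UMIs were next summed per library over dividing cells and over other cells, and the 8 sums were compared with edgeR's quasi-likelihood test with the library as a block. Of 10376 genes tested, 814 passed an adjusted p (Benjamini-Hochberg) of 0.05, which is 7.85%, with 355 higher (3.42%) and 459 lower (4.42%) in dividing cells. Without the cell cycle lists, 722 of 10256 passed (7.04%), 265 higher (2.58%) and 457 lower (4.46%). Such sums mix 2 things, which classes the cells belong to and how much each cell makes, so each list is also given below with the other cells weighted to the class makeup of the dividing cells of their library. That alternative was chosen after the data were seen. It called 584 of 10293 genes (5.67%), 265 higher (2.57%) and 319 lower (3.1%). Each weighted sum was scaled to the UMI total of all other cells of its library. The p-values of this fit thus do not carry the full counting error of small classes. In the medial white library, 17 of 24 dividing cells put their weight on 46 other tendon-type-like cells. In the unweighted comparison fewer genes were called without the lateral red library, 355, and without the medial red library, 419. DESeq2 called 474 (4.57%, with 277 or 2.67% higher and 197 or 1.9% lower). Library totals without TMM scaling called 894 genes (8.62%), 723 higher (6.97%) and 171 lower (1.65%), and moved the median log2 fold change of all genes to 0.27 from the -0.17 of the scaled fit.

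Genes of chondrocytes were lower in dividing cells. The list stood at 1188, 5927, 118 and 225 CPM in dividing cells of the lateral white, medial white, lateral red and medial red libraries, against 11289, 11836, 1075 and 525 CPM in other cells. All 11 tested genes of the list fell, with a median log2 fold change of -2.61 against that of -0.17 over all genes. COL2A1 stood at 79.2, 1931, 8.44 and 0 CPM in dividing cells, against 5966, 6763, 335 and 66.3 CPM in other cells, and was lower in all 4 libraries (log2 fold change -4.82 ± 0.61 SE, adjusted p 4.6e-13). ACAN stood at 634, 1405, 16.9 and 164 CPM, against 1791, 1645, 240 and 199 CPM in other cells (-1.79 ± 0.43, adjusted p 0.00098). SOX9, the transcription factor that sets the chondrocyte programme, fell by 1.93 ± 0.40 (adjusted p 6.1e-05). The gap was narrower in both medial libraries for ACAN. With other cells weighted by class, 3 of 7 tested genes of the list fell, CHAD, COL2A1 and SOX9, with COL2A1 at -1.99 (adjusted p 5.1e-06), while ACAN was at -0.33 (adjusted p 0.67). In tendon-type-like cells of the medial white library COL2A1 was instead higher in dividing cells, at 717 CPM against 173 CPM. The weighted value thus does not describe each class.

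Fibrochondrocyte genes were lower as well. The list stood at 2099, 22657, 810 and 2130 CPM in dividing cells, against 18300, 32302, 7016 and 4556 CPM in other cells, and all 9 tested genes fell (median -2.47). COMP stood at 753, 11573, 194 and 955 CPM in dividing cells, against 9977, 16446, 3450 and 1742 CPM in other cells (-2.90 ± 0.58, adjusted p 3e-05; 0.2 by DESeq2). PRELP, a leucine-rich repeat protein that anchors collagen, fell by 2.47 ± 0.47 (adjusted p 7.4e-06). With other cells weighted by class, 6 of 8 tested genes fell and COMP was at -1.42 (adjusted p 0.00013), while CILP was at -0.26 (adjusted p 0.84). This fit pools classes that went different ways for COMP. In tendon-type-like cells of the medial white library COMP was higher in dividing cells, at 10402 CPM against 6369 CPM. Within mural-like and within myeloid-like cells of the red zone it fell.

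Of 15 fibroblast genes, 7 fell and none rose. The list stood at 11329, 81206, 8604 and 22707 CPM in dividing cells, against 44250, 104251, 39356 and 46953 CPM in other cells. DCN, decorin, which binds collagen fibrils and growth factors, stood at 634, 11585, 540 and 757 CPM in dividing cells, against 13255, 21223, 3603 and 3305 CPM in other cells (-3.07 ± 0.57, adjusted p 3.4e-06). SFRP2, a secreted WNT modulator, stood at 0, 0, 50.6 and 271 CPM, against 7.01, 0.877, 513 and 1020 CPM (-2.71 ± 0.50, adjusted p 3.2e-06). COL1A1 did not pass, at 2614, 17427, 4361 and 12116 CPM in dividing cells, against 3645, 12758, 20591 and 24072 CPM in other cells (-1.52 ± 0.55, adjusted p 0.066); it was higher in dividing cells of the medial white library and lower elsewhere. Weighted by class, 8 of the 15 fell, COL1A1 among them at -0.98 (adjusted p 0.015). THY1 was at -0.07 ± 0.37 (adjusted p 0.96), higher in dividing cells of both white zone libraries and lower in both red zone libraries.

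All 5 tested tendon-type genes fell, ANGPTL7, KERA, MKX, MYOC and THBS4. ANGPTL7, a secreted angiopoietin-like protein, stood at 0, 196, 0 and 1.98 CPM in dividing cells, against 51.0, 353, 83.6 and 140 CPM in other cells (-3.30 ± 0.46, adjusted p 1.2e-10), and 4 of the 5 fell with other cells weighted by class. THBS4 fell by 1.88 ± 0.45 (adjusted p 0.00083), but it was higher in dividing cells of the medial white library, at 2322 CPM, against 1592 CPM in the other cells.

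**Figure D4:**
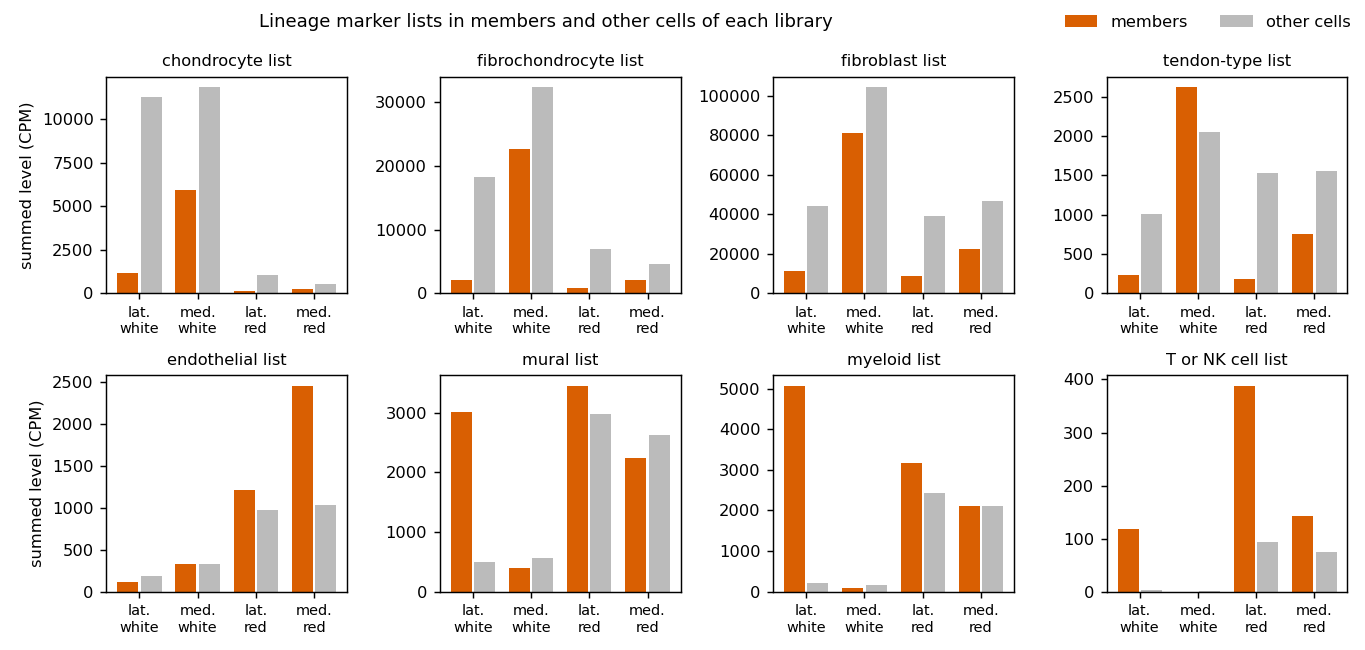
Summed level of 8 lineage lists in CPM (vertical axes, each panel with its own scale) in dividing cells ("members", left bars) and other cells (right bars) of the 4 libraries, with no error since each bar is 1 sum. The chondrocyte, fibrochondrocyte and fibroblast lists are lower in dividing cells of all 4 libraries, and the tendon-type list is lower in all but the medial white library, where it stands at 2615 CPM against 2051 CPM.

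Few genes of the endothelial, mural and myeloid lists passed, whereas 3 of 6 tested T or NK cell genes rose (median log2 fold change 1.39). Of 15 endothelial genes, CLDN5 and ROBO4 rose and none fell, and the list stood at 119, 330, 1215 and 2460 CPM in dividing cells, against 191, 330, 970 and 1034 CPM in other cells. PECAM1 stood at 0, 85.5, 515 and 995 CPM in dividing cells, against 64.4, 129, 372 and 363 CPM in other cells, below in the white zone and above in the red zone (-0.10 ± 0.39, adjusted p 0.94). In the red zone libraries alone it was higher, at 0.72 (adjusted p 0.038). CLDN5, a tight junction protein of endothelium, stood at 0, 0, 202 and 85.0 CPM in dividing cells, against 2.85, 4.12, 22.9 and 31.6 CPM in other cells (1.71 ± 0.37, adjusted p 0.00012; 0.33 by DESeq2, and 0.18 with other cells weighted by class). Of 14 mural genes none passed, with a median of -0.14 that turned to 0.30 without TMM scaling. ACTA2, smooth muscle actin, stood at 515, 12.2, 515 and 413 CPM in dividing cells, against 23.7, 11.7, 575 and 512 CPM in other cells (0.21 ± 0.40, adjusted p 0.86). The lateral white library held 3 dividing mural-like cells.

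Of 14 myeloid genes, AIF1 and PTPRC rose. PTPRC, the pan-leukocyte phosphatase CD45, stood at 79.2, 0, 186 and 127 CPM in dividing cells, against 4.82, 3.31, 61.4 and 48.6 CPM in other cells (1.20 ± 0.35, adjusted p 0.013; 0.21 by DESeq2). CSF1R stood at 119, 0, 169 and 61.3 CPM, against 5.55, 3.37, 97.3 and 67.3 CPM (0.17 ± 0.37, adjusted p 0.88). Of 6 tested T or NK cell genes, CD3D, CD3E and LCK rose. CD3E stood at 39.6, 0, 92.8 and 23.7 CPM in dividing cells, against 0.438, 0, 7.15 and 6.34 CPM in other cells (2.49 ± 0.47, adjusted p 6.3e-06). The medial white library, where 22 of 24 dividing cells were matrix cells, was at 0 for all 3 of these immune genes. With other cells weighted by class, none of 7 T or NK cell genes passed and CD3E and PTPRC turned to -0.52 (adjusted p 0.67) and -0.56 (adjusted p 0.45). Markers of neutrophils were at 0 in dividing cells of all 4 libraries, and those of skeletal muscle in 3 of them. Other cells were low too, at 22.4, 2.63, 0.841 and 1.14 CPM for neutrophils and 3.36, 1.69, 14.3 and 19.7 CPM for skeletal muscle. A level of 0 in so few dividing cells therefore says little.

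NCAM1, a neural cell adhesion molecule also made by some mesenchymal and immune cells, was the one marker of the Schwann cell list that rose. It stood at 39.6, 257, 67.5 and 59.3 CPM in dividing cells, against 6.50, 14.0, 26.9 and 33.0 CPM in other cells (1.58 ± 0.34, adjusted p 0.00017; 0.082 by DESeq2). It was higher in all 4 libraries and most so in the medial white library, and it stayed higher with other cells weighted by class (1.84, adjusted p 0.00015) and within matrix and unnamed clusters alone (2.44, adjusted p 1.9e-07). The Schwann cell list as a whole stood at 555, 684, 396 and 409 CPM, against 676, 818, 348 and 450 CPM.

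When vascular and immune classes were left out, only the medial white and medial red libraries had 10 or more dividing cells. Of 9601 genes, 275 passed (2.86%), 174 higher (1.81%) and 101 lower (1.05%). The 174 included the 6 rule genes and 32 of 33 mitosis genes, which the rule brings with it. In this comparison of matrix cells with matrix cells, 6 of 11 chondrocyte genes fell, 2 of 9 fibrochondrocyte genes, 1 of 15 fibroblast genes and 4 of 7 tendon-type genes. COL2A1 stood at 2017 and 0 CPM in dividing matrix cells of the medial white and medial red libraries, against 7109 and 103 CPM in the others (-3.07, adjusted p 0.0062). MIA, a small secreted cartilage protein, had 0 UMIs in these dividing cells, against 120 and 8.25 CPM in the others, which is at least 6.19-fold lower with 3 counts over the group as the floor. COMP (-0.88, adjusted p 0.83), ACAN (-0.41, adjusted p 0.90) and COL1A1 (-0.49, adjusted p 0.97) did not pass.

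Among other lists, 9 of 18 growth factor genes fell and none rose (median -1.13). Without TMM scaling 3 fell. CCN2, a matricellular protein that mechanical load and TGF-beta induce, stood at 79.2, 1002, 380 and 305 CPM in dividing cells, against 846, 891, 1024 and 767 CPM in other cells (-1.81 ± 0.41, adjusted p 0.0003), lower in 3 of 4 libraries. FGF2 fell by 1.38 ± 0.36 (adjusted p 0.0035) and IGF1 by 1.65 ± 0.40 (adjusted p 0.00089). CCN2 was the only growth factor that passed with other cells weighted by class. Of 19 growth factor receptors, FGFR1 and TGFBR3 fell, and none passed in the weighted comparison.

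Of 13 genes for matrix proteases and their inhibitors, MMP2, MMP3, TIMP1 and TIMP3 fell, in the weighted comparison too. MMP3, stromelysin, stood at 198, 342, 143 and 43.5 CPM in dividing cells, against 797, 357, 615 and 242 CPM in other cells (-2.28 ± 0.39, adjusted p 4.6e-07), lower in all 4 libraries. TIMP3, a matrix-bound protease inhibitor, stood at 277, 1075, 211 and 336 CPM, against 1053, 1404, 621 and 558 CPM (-1.72 ± 0.41, adjusted p 0.0007). Of 21 hypoxia and glycolysis genes, BNIP3, HK2, P4HA1 and VEGFA fell, of which BNIP3, a hypoxia-induced mitophagy receptor, also passed when weighted (-1.02, adjusted p 0.03).

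Of 16 immediate-early and heat shock genes, EGR1, FOS, FOSB, IER3 and NR4A1 fell, whereas the summed list was higher in dividing cells, at 8477, 8371, 13556 and 10763 CPM, against 6646, 5870, 10739 and 10605 CPM. FOS, which is switched on within minutes by growth signals and by tissue handling, stood at 39.6, 330, 557 and 510 CPM in dividing cells, against 378, 300, 806 and 938 CPM in other cells (-1.30 ± 0.39, adjusted p 0.013). None of the 5 passed without TMM scaling. None of 5 MHC class II genes and none of 15 interferon response genes passed, but 5 of the 15 interferon genes fell with other cells weighted by class, among them ISG15, a ubiquitin-like interferon product, at -1.64 (adjusted p 9.6e-07). Of 19 ribosomal protein genes of the small subunit, 1 fell in the comparison with all other cells and 9 with the class-weighted one.

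Outside the cell cycle lists, the largest increases were again genes of cell division. They included DIAPH3, a formin of the actin ring, and SHCBP1, DLGAP5 and SGO1, which act at the spindle and centromere. DIAPH3 was seen in 66 dividing cells and in 0.0836% of other cells. The largest decreases that were the same in all 4 libraries included MIA and COL9A1 of cartilage, the calcium-binding protein gene S100A1, CXCL9, LCN2 and HPS5. CXCL9, a chemokine that interferon-gamma induces, gave 1 UMI in all dividing cells, at 0, 0, 8.44 and 0 CPM, against 7.96, 19.4, 79.6 and 57.7 CPM in other cells. LCN2, an acute-phase iron-binding protein, stood at 0, 48.9, 0 and 1.98 CPM, against 754, 283, 30.4 and 43.9 CPM (-4.62 ± 0.58, adjusted p 1.8e-13). The row named HPS5 in the files, whose annotation was not tested and which takes an unusually large part of all UMIs, stood at 10656, 5365, 987 and 314 CPM in dividing cells, against 130713, 30698, 20258 and 8749 CPM in other cells (-4.55 ± 0.70, adjusted p 6e-09). LCN2 and HPS5 also fell with other cells weighted by class, at -3.72 (adjusted p 8.1e-10) and -3.38 (adjusted p 2.2e-24).

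Dividing and other cells were then compared within 1 class at a time, in the 2 red zone libraries, for the 4 classes with 8 or more dividing cells in both. This threshold was set after the data were seen, since no class had 10 in 2 libraries, and each fit has 1 residual degree of freedom. Among 6815 genes tested in endothelial-like cells, 83 passed (1.22%), 76 higher (1.12%) and 7 lower (0.103%). The 76 included the 6 rule genes and 23 of 25 mitosis genes, which the rule brings with it. Without TMM scaling 102 genes were higher and 28 lower. None of the 15 endothelial genes passed, and PECAM1 stood at 2882 and 2127 CPM in dividing cells of the lateral and medial red libraries, against 2257 and 1915 CPM in other endothelial-like cells (-0.06 ± 0.35, adjusted p 0.998). The CPM values are not TMM-scaled, and without that scaling the log2 fold change of PECAM1 was 0.23 (adjusted p 0.91).

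The 7 genes that fell in dividing endothelial-like cells included CXCL9, VCAM1, RSAD2 and HPS5. The finer clustering (resolution 1) split the class. A cluster of 258 cells led by FABP4 held 60 of the 77 dividing cells. One of 2362 cells, with RSAD2 and CXCL9 among its 10 leading genes, held 17 of them. Most dividing and most other cells thus stood in different clusters. The clustering genes included cell cycle genes. For the cluster of 258 cells, a list of 5 rule genes ranked second, after the endothelial list. What part those genes have in the split was not tested. CXCL9 stood at 48.0 and 0 CPM in dividing cells of the lateral and medial red libraries, against 398 and 234 CPM in other endothelial-like cells (adjusted p 6.1e-11). It gave 1 UMI in the dividing cells, a ratio of 0.0134 to the other cells with a counting interval of 0.000339 to 0.0748. VCAM1, an adhesion molecule for leukocytes that inflamed endothelium shows, stood at 192 and 71.1 CPM, against 432 and 234 CPM (-1.78 ± 0.45, adjusted p 0.0083). RSAD2, an antiviral enzyme that interferon induces, stood at 96.1 and 280 CPM, against 693 and 458 CPM (-1.36 ± 0.39, adjusted p 0.045), the 1 of 15 interferon response genes that passed. HPS5 stood at 48.0 and 75.5 CPM, against 1595 and 2111 CPM (-4.99 ± 0.50, adjusted p 8.8e-21). All 4 were lower in dividing cells of both libraries.

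**Figure D5:**
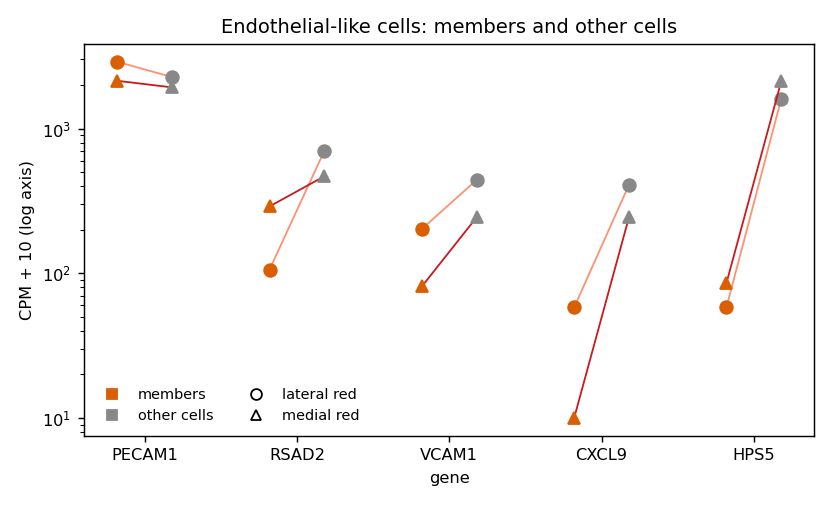
Level of 5 genes (CPM + 10, log axis) in dividing endothelial-like cells ("members", left) and other endothelial-like cells (right), with a line for the lateral red (circles) and the medial red library (triangles). PECAM1 stands at 2882 and 2127 CPM against 2257 and 1915 CPM, while RSAD2, VCAM1, CXCL9 and HPS5 are lower in dividing cells of both libraries.

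In mural-like cells, 156 of 7237 genes passed (2.16%), 60 higher (0.829%) and 96 lower (1.33%). The 60 included the 6 rule genes and 11 of 14 mitosis genes. DESeq2 called 16 higher and 13 lower, and edgeR without TMM scaling 99 and 66. Of 15 mural genes, the contractile genes CNN1, DES and TAGLN fell, and ACTA2 stood at 1741 and 2355 CPM in dividing cells, against 3264 and 3082 CPM in other mural-like cells (-0.93 ± 0.32, adjusted p 0.13). Of 14 fibroblast genes 6 fell, among them COL1A1, at 3229 and 1785 CPM in dividing cells, against 4474 and 6412 CPM in others (-1.48 ± 0.35, adjusted p 0.0024). At the finer clustering, the cluster led by MYH11, with TAGLN and CNN1 among its leading genes, held 611 of 2320 mural-like cells and 4 of the 29 dividing ones, and the other mural-like cluster held 25. ABI3BP, an extracellular matrix protein, had 0 UMIs in dividing mural-like cells and is at least 4.48-fold lower, and MFAP4, a microfibril protein, at least 4.03-fold lower. HBB, a haemoglobin chain that mural cells do not make, was also at 0 and at least 3.48-fold lower, against 36.0 and 177 CPM in other mural-like cells. Its fall beside the matrix genes was measured in the same cells, and what part free RNA has in either was not tested.

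In myeloid-like cells, 81 of 5577 genes passed (1.45%), 40 higher (0.717%) and 41 lower (0.735%). The 40 included 5 rule genes and 11 of 14 mitosis genes. DESeq2 called 13 higher and 0 lower, with 107 genes of either direction at an unadjusted p under 0.05, so none of the lower genes named here passed in it, and edgeR without TMM scaling called 55 higher and 19 lower. None of the 14 myeloid genes passed, and CSF1R stood at 877 and 696 CPM in dividing cells, against 889 and 650 CPM in other myeloid-like cells (-0.33 ± 0.33, adjusted p 0.94). CCR7, the lymph node homing receptor of mature dendritic cells, stood at 0 and 22.5 CPM, against 259 and 208 CPM (adjusted p 0.0002), and its 1 UMI gives a ratio of 0.064 (counting interval 0.00162 to 0.358). CCL19, a ligand of CCR7, had 0 UMIs in dividing cells and is at least 3.53-fold lower. SPP1, osteopontin, with 2 UMIs in dividing cells, stood at 43.8 and 22.5 CPM, against 261 and 202 CPM (adjusted p 0.0018).

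In T or NK cell-like cells, 27 of 1291 genes passed (2.09%), 11 higher (0.852%) and 16 lower (1.24%). The 11 included 3 rule genes and the replication gene MCM7. DESeq2 called 1 higher and 1 lower, and edgeR without TMM scaling 7 higher and 1 lower. GZMA, a protease of cytotoxic granules, had 0 UMIs in dividing cells, against 686 and 380 CPM in other T or NK cell-like cells, and is at least 7.25-fold lower. KLRK1, the activating receptor NKG2D, stood at 110 and 0 CPM in dividing cells, against 811 and 305 CPM in the others (adjusted p 0.0497), with a ratio of 0.0877 from 2 UMIs (counting interval 0.0105 to 0.322). ACTG1, a cytoskeletal actin, rose by 1.16 ± 0.16 (adjusted p 0.0093).

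Among the dividing cells themselves, the white zone was compared with the red zone with the meniscus as a second term, which leaves 1 residual degree of freedom. Of 1818 genes, 63 passed (3.47%), 36 higher (1.98%) and 27 lower (1.49%) in the white zone. None passed with the meniscus left out of the model, where 269 had an unadjusted p under 0.05, and 24 passed by DESeq2 and 23 without TMM scaling. A fit without the lateral white library, whose 10 cells are the fewest, also lacked the meniscus term. It left 1 white zone library, so its count is not comparable. The low-count filter kept 3 of 13 measured chondrocyte genes and 5 of 9 fibrochondrocyte genes. A gene could pass it through the 2 libraries of the zone where it was high. The counts per list are therefore a description only. All 3 kept chondrocyte genes rose and so did CILP2, COMP and FMOD of the 5 fibrochondrocyte genes. ACAN stood at 634 and 1405 CPM in dividing cells of the lateral and medial white libraries, against 16.9 and 164 CPM in those of the lateral and medial red libraries (3.78 ± 0.55, adjusted p 0.0041). SOX9 stood at 119 and 318 CPM, against 25.3 and 5.93 CPM (4.57 ± 0.87, adjusted p 0.013), and SPP1 at 475 and 1369 CPM, against 16.9 and 37.6 CPM (5.12 ± 0.56, adjusted p 0.0006). For each of these 3 genes both white zone values lay above both red zone values. The chondrocyte list had the same order in other cells, at 11289 and 11836 CPM against 1075 and 525 CPM. Matrix and unnamed clusters held 40% and 91.7% of dividing cells of the lateral and medial white libraries. In the lateral and medial red libraries they held 12.5% and 24.1%. What part this makeup has in the zone differences was not tested.

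Of the vascular and immune lists, the same filter kept PECAM1 alone of 15 endothelial genes and JCHAIN alone of 7 B or plasma cell genes. Both could pass it through the red zone, where they were high, and both fell. None of 5 mural and none of 9 myeloid genes had an adjusted p below 0.05. PECAM1 stood at 0 and 85.5 CPM, against 515 and 995 CPM (-3.87 ± 0.66, adjusted p 0.0082), and FABP4, a fatty acid carrier of capillaries and adipocytes, at 39.6 and 12.2 CPM, against 489 and 1046 CPM (-5.30 ± 0.75, adjusted p 0.0034). APOA1, the apolipoprotein of high-density lipoprotein, had 0 UMIs in white zone dividing cells, against 515 and 664 CPM in the red zone, and is at least 22.7-fold lower. COL1A1 stood at 2614 and 17427 CPM, against 4361 and 12116 CPM (-0.04 ± 0.54, adjusted p 0.98), where the 2 zones overlap. MYBL1, a transcription factor of the MYB family, was higher at 396 and 501 CPM, against 50.6 and 59.3 CPM (3.09 ± 0.48, adjusted p 0.0047). Of the 18 tested mitosis genes none passed, with a median log2 fold change of 0.21.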

How the data were processed

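RNA was measured in 4 pig meniscus libraries, 1 for each zone and meniscus, made with a droplet kit for 3' ends of transcripts. The deposited values are raw UMI counts per gene and barcode; per the submitters' processing notes, Cell Ranger 6.1.2 and the pig build Sscrofa11.1 were used. Of 21280 features, 14811 carried a symbol in the files and 694 more were named from a reference table by gene ID.

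Barcodes with 200 or more genes were kept, and those with 3 or more UMIs over the 6 rule genes are the dividing cells. Cells were clustered with scanpy 1.11.5 (2000 variable genes, 30 principal components, 15 neighbours, Leiden resolution 0.5). Clusters were named from marker lists. No doublet was removed.

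Counts were summed per library over dividing and over other cells. Genes were tested with edgeR 4.0.16 (quasi-likelihood test, TMM scaling, filterByExpr, Benjamini-Hochberg) in R 4.3.3, with DESeq2 1.42.0 as an alternative. The library was a block for dividing against other cells, since both sums come from the same library, and the meniscus for white against red zone. Fold changes are log2 with standard errors; fits were tested on simulated data. Exact binomial intervals cover counting error only. A gene at 0 was set to a floor of 3 counts over the group. Named genes were the 12 largest changes in each direction among genes past the threshold, changed the same way in every library and with a mean of 20 CPM or more, up to 5 per list, and a fixed set; a few others, such as genes shown for contrast, were named after their values were seen. The members and lists were chosen with earlier results of these data known. A comparison within classes was planned for 10 or more dividing cells in 2 libraries, which no class had, and was made at 8.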

Additional observations from a re-analysis of the deposited data

Results flagged for a closer look

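Whether the difference between dividing and other cells itself differed between zones was tested as an interaction of white over red zone, with 2 residual degrees of freedom. Of 10376 genes, 49 passed in edgeR (0.472%) and 3 by DESeq2, and without single libraries between 1 and 232 passed. The interaction was 4.67 for ANGPTL7, 2.97 for AIF1, 2.37 for C1QC, 2.33 for NCAM1, 2.96 for STMN1, -1.75 for RPS27A, -2.52 for PECAM1 and 2.55 for ACTA2, all on the log2 scale. A positive value means that dividing cells stood higher against other cells in the white zone than in the red zone. STMN1 stood at 555 and 354 CPM in dividing and 2.41 and 2.16 CPM in other white zone cells, and at 413 and 279 CPM in dividing and 29.7 and 19.5 CPM in other red zone cells, so the zones differed most in the other cells. The lateral white library held 3 dividing mural-like and 2 dividing myeloid-like cells and the medial white library 0 of both, and AIF1 and C1QC were at 0 in dividing cells of the medial white library. ANGPTL7 had 16 UMIs in dividing cells of the medial white library, with 0 in those of the lateral white library.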

How the results depend on the processing

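The 814 genes called between dividing and other cells became 474 by DESeq2, 275 within matrix and unnamed clusters alone and 208 with no replicate block, and 355 to 819 without 1 library. The block pairs sums of the same library. The zone comparison of dividing cells called 63 genes, against 24 by DESeq2, 23 without TMM scaling, 174 with no filter on low counts, 0 with no replicate block (edgeR; 269 at an unadjusted p under 0.05, and DESeq2 called 24 with the block) and 44 to 353 without 1 library. The interaction of zone called 49 genes, against 3 by DESeq2, 98 without TMM scaling and 1 to 232 without 1 library. Within classes, T or NK cell-like cells gave 27 genes, against 8 without TMM scaling, 2 by DESeq2 and 150 with no filter; endothelial-like cells gave 83, against 130 without TMM scaling; mural-like cells 156, against 29 by DESeq2; and myeloid-like cells 81, against 13 by DESeq2. Leaving a library out was not possible there. The cause of these moves was not tested. PTPRC (-0.56) and CD3E (-0.52) reversed with other cells weighted by class, and PECAM1 (0.72) in the red zone alone. Over the named genes and their alternatives, 2359 values kept their direction and side of the threshold, 65 passed it newly and 234 no longer passed. The share of dividing cells differed by -1.90 to -0.478 points between zones without 1 library and by -1.52 to -0.636 points under the other settings. Between 67.3 and 71.7% of dividing cells were vascular or immune. At Leiden resolution 1 this share counts a proliferating-like cluster, with 50 dividing cells among 58 barcodes, as matrix. The 10 dividing cells of the lateral white library limit every comparison that rests on it.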
